A study of Mus musculus with 4 samples.

Results

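The genes described here build and run the primary cilium: subunits of the 2 intraflagellar transport complexes and of the retrograde motor dynein-2, the BBSome with its assembly factors, 3 Arl GTPases, and proteins of the transition zone at the cilium base. They were taken by symbol from the deposited expression table of mature olfactory sensory neurons, with a pattern over the Ift, Bbs, Ttc, Arl, Nphp, Tctn and related names. The pattern itself uses no expression value, but it was chosen with earlier results of these data known. The pattern matched 40 genes of 28168 loci, each with a single locus, and 38 of the 40 were tested by the authors. The test failed for the BBSome genes Bbs7 and Bbs9. No filter on low values was applied, so all 40 enter the counts.

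Intraflagellar transport (IFT) carries building material along the ciliary microtubules: IFT-B with kinesin-2 runs towards the tip, and IFT-A with dynein-2 returns to the base. The BBSome is a coat-like adaptor that moves membrane proteins, receptors among them, through the cilium. Olfactory sensory neurons hold their odorant receptors and transduction channel in long cilia on the dendritic knob, and mice with defects in Bbs1, Bbs4 or Ift88 have impaired olfactory cilia and smell.

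RNA came from sorted mature olfactory sensory neurons of mouse olfactory epithelium, in 4 libraries with 2 per group. The Nd1 mice were Nd1+/-; OMP-IRES-tTA+/-:OMP-IRES-GFP+/- at 212 days (replicate 1) and 87 days (replicate 2). The controls had the same ages but different genotypes: at 212 days Nd1+/-; OMP-IRES-tTA-/-:OMP-IRES-GFP+/-, which carries Nd1 without the tTA activator, and at 87 days Nd1-/-; OMP-IRES-tTA+/-:OMP-IRES-GFP+/-, which carries tTA without Nd1. All 4 carried the GFP reporter at Omp, and the table's heading calls the controls littermates. Per the series text, the line expresses double-stranded RNA from the genome and shows neurodegeneration, and tTA placed at Omp restricts the activator to cells that use that locus. The labels state neither the sorting gate nor how many mice entered a library. The table holds 1 FPKM value per group (fragments scaled by transcript length and by all mapped fragments, so a level per length). No value per library, spread between replicates or depth can therefore be given, and every FPKM below is the authors' pooled value. Calls are those of the authors' deposited table at q under 0.05, and "rose" and "fell" are used only for these. In such bulk samples fewer cells of a type and less RNA per cell cannot be told apart.

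Sequence elements of the promoters are shown first because RFX transcription factors, the known regulators of ciliary genes, bind an inverted repeat called the X-box. It was searched on both strands as GTTNCC, a spacer of 1 to 3 bases and NGNAAC, in windows of 300 bases from RefSeq on GRCm38.p6, which run from 250 bases before a gene's start to 50 after it. Of 34 members with a window, 6 held a match (17.6%), beside 1.90% of all 27025 genes in the promoter table and 2.04% of the 9646 genes that also had a tested locus. The 6 matches are printed with up to 8 flanking bases, 5′ to 3′ on the gene's strand and with the match in capitals.
Bbs7: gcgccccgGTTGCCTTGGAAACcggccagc
Tctn1: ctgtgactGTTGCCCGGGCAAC
Ttc26: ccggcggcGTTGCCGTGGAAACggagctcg
Mks1: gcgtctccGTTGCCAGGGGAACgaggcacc
Ift57: gccctgcgGTTGCCTGGTAACggtgggga
Tctn3: tcccagcgGTTGCCAGGTAACgggaacca

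The match began 121 bases before the start of Bbs7, 33 before that of Ttc26, 24 before Mks1, 60 before Ift57 and 140 before Tctn3, and 36 bases after the start of Tctn1. In the order printed, the windows lie at chr3:36613489-36613518 (minus strand), chr5:122264411-122264432 (minus), chr6:38381483-38381512 (plus), chr11:87853183-87853212 (plus), chr16:49699226-49699254 (plus) and chr19:40612351-40612379 (minus) of GRCm38.p6. None of the 5 tested genes among them passed the authors' threshold, which 34.4% of all tested loci passed. The log2 ratios of these 5, Nd1 over control, ran from -0.24 to 0.31 with a median of -0.046. The 27 tested members with a window but without a match had a median of -0.059 and held all 4 calls. The difference between these sets was not tested. The half-site GTTGCC alone, on either strand and overlapping the full matches, was in 17 of the 34 members and in 14.1% of all genes in the table. These are matches of letters and were not tested for binding.

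The promoters of the 4 members that passed the threshold are printed in full, since the expression results turn on these genes, with each half-site GTTGCC or its complement in capitals.
Ttc21b: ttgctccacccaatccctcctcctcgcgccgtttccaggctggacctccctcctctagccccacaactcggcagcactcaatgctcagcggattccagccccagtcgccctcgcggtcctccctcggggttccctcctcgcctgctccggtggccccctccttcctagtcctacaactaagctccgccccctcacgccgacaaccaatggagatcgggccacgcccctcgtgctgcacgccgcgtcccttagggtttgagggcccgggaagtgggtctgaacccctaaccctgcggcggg
Dync2h1: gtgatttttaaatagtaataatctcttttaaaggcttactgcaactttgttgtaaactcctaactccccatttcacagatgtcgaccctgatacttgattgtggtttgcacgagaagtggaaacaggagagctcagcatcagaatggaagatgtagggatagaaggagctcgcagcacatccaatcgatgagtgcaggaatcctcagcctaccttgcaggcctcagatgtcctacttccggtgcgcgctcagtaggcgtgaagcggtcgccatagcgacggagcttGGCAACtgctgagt
Tctn2: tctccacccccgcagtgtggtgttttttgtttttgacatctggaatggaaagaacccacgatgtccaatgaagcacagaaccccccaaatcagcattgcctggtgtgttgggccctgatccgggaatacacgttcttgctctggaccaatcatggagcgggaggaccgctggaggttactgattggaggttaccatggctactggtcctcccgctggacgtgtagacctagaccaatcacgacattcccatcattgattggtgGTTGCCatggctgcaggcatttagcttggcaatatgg
Bbs1: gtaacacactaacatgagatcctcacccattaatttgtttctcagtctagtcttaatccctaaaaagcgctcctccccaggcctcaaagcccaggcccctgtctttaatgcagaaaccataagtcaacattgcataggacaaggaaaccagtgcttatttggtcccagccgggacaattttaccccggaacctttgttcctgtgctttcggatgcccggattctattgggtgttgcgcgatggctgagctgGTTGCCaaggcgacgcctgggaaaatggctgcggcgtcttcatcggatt

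They lie at chr2:66256568-66256867 (minus strand), chr9:7177009-7177308 (minus), chr5:124598499-124598798 (plus) and chr19:4906578-4906877 (minus) of GRCm38.p6. The windows of Dync2h1, Tctn2 and Bbs1 each held 1 half-site, and that of Ttc21b held 0.

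Setting Nd1 against control compares mice that carry both Nd1 and tTA with pooled controls that lacked tTA (212 days) or Nd1 (87 days). Effects of double-stranded RNA cannot be told apart there from those of tTA or Nd1 itself. Across the ciliary transport genes most levels were close in both groups. Of 38 tested members 1 rose, Ttc21b, and 3 fell, Dync2h1, Tctn2 and Bbs1. Those 4 are 10.5% of the tested members, whereas 34.4% of all 14841 tested loci passed in the authors' deposited table, 15.1% higher and 19.2% lower. Among the 10724 loci whose mean FPKM lay within the range of the tested members, 2.27 to 171 FPKM, 32.4% passed. The median log2 ratio was -0.056 over the tested members and -0.068 over all tested loci. The median size of the change, regardless of sign, was 0.11 on the log2 scale for the members and 0.27 for all tested loci. These sizes, and the shares within a given fold below, were not compared over loci of like FPKM.

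In 35 of the 38 tested members (92.1%) the pooled values differed by less than 1.25-fold, as they did in 55.7% of all tested loci above 0 in both groups. In 37 they differed by less than 1.5-fold, the exception being Ttc21b, as they did in 71.1% of those loci. Ttc21b alone among the members both passed the threshold and changed by at least 1.5-fold, as did 23.1% of all tested loci. Of all 40 members 28 were listed lower in Nd1 and 12 higher, a division that rests on small differences: 13 members changed side when the groups were scaled to their summed FPKM without odorant receptors. The summed FPKM of the 40 members was 1417 in control and 1364 in Nd1, or 0.362% and 0.381% of the table's total. Across the members the log2 levels of the 2 groups had a Pearson r of 0.973 (n = 40 genes of the same 2 pools, which are not independent replicates), and 0.986 without Ttc21b.

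**Figure D1:**
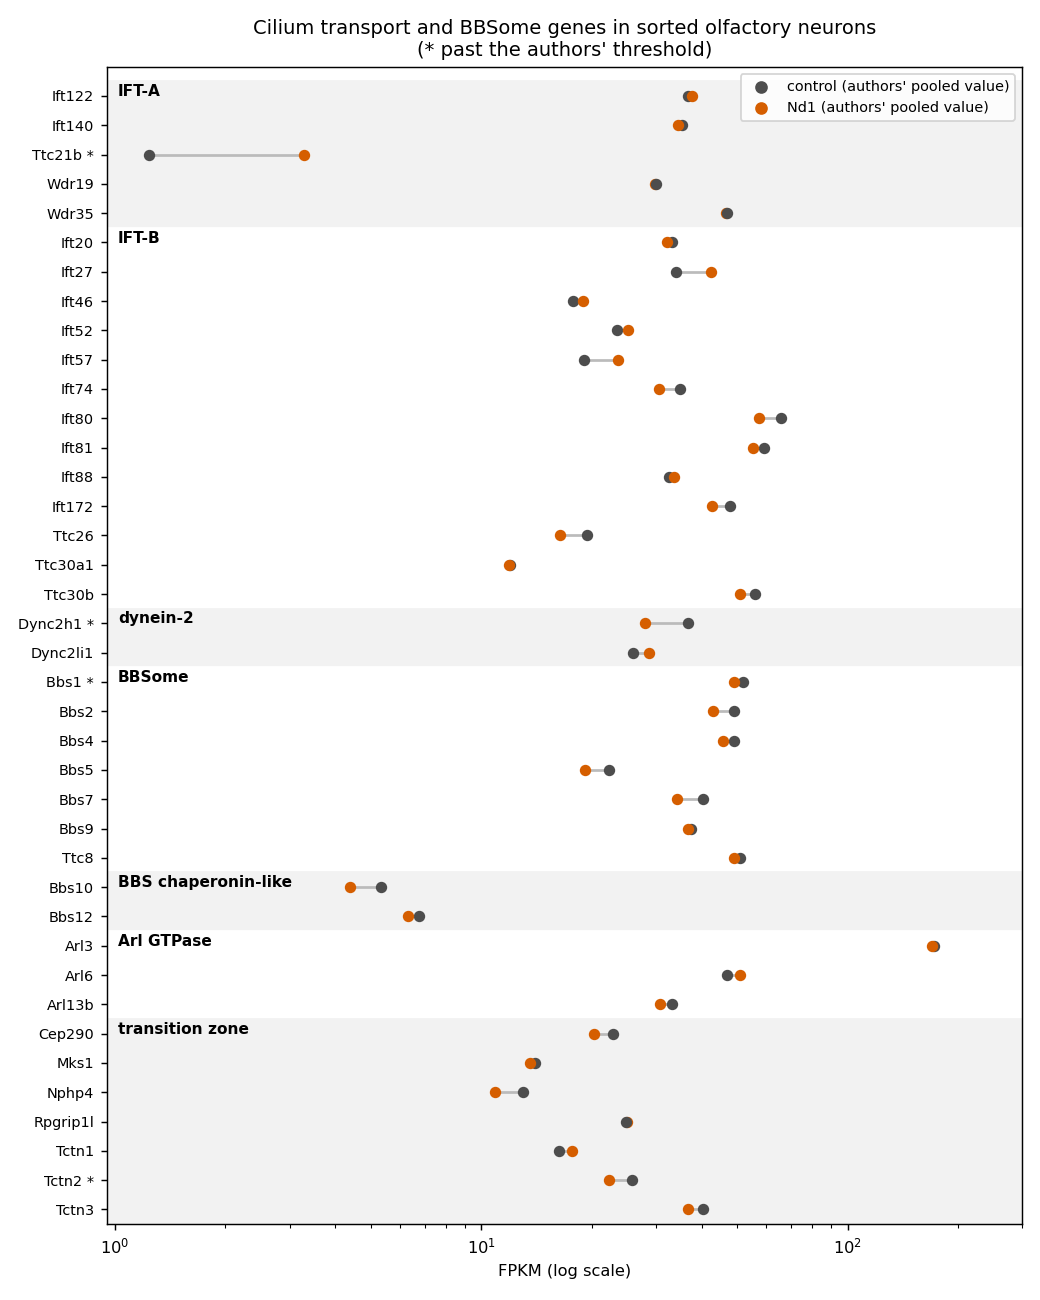
FPKM of 39 of the 40 members in control (grey) and Nd1 (orange) on a log axis, grouped by complex; each point is the authors' single pooled value, and an asterisk marks the 4 genes past their threshold. The pairs nearly coincide except for Ttc21b (1.24 and 3.29 FPKM), and Arl3 stands highest at 172 and 169 FPKM.

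The IFT-A complex, which serves retrograde transport and the entry of membrane proteins, held the largest change of all members. Ttc21b, which encodes its peripheral subunit IFT139, was at 1.24 FPKM in control and 3.29 FPKM in Nd1. It rose 2.66-fold, with a log2 fold change of 1.41 and q listed as 0 in the authors' deposited table (locus on mm9 chromosome 2, 66022386 to 66094674). With pseudocounts of 1 and 10 FPKM its log2 ratio was 0.94 and 0.24. In control this level was far below that of the other measured subunits. The core subunits Ift122 (36.6 FPKM in control and 37.7 in Nd1, in this order from here on), Ift140 (35.3 and 34.5) and Wdr19 (30.0 and 29.8) lay close together. The peripheral subunit Wdr35 stood at 46.9 and 46.6 FPKM. Their median was 29.0 times the level of Ttc21b in control and 11.0 times in Nd1. None of these 4 passed, and their log2 ratios lay between -0.032 and 0.041.

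Because Ttc21b was so low, its paralog Ttc21a was looked up after these values were seen. Ttc21a, which is linked to the sperm flagellum in mouse and human, stood at 164 FPKM in control and 129 FPKM in Nd1. It fell 1.27-fold, with a log2 fold change of -0.35 and q = 6.16e-09 in the authors' deposited table. The ratio of Ttc21a to Ttc21b thus went from 133 to 39.2, and Ttc21b made up 0.749% of their summed FPKM in control and 2.49% in Nd1. None of the 5475 stretches of 50 bases in the annotated Ttc21a transcripts occurred in a transcript of another gene. Of those of Ttc21b 0.561% did.

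Genes listed for multiciliated respiratory cells, which also use IFT and could be carried in a sort, changed in both directions. Any part of such cells in the rise of Ttc21b was not tested. Of 27 tested genes on that marker list 10 rose and 5 fell in the authors' deposited table (median log2 ratio 0.16). Thus 55.6% passed, beside 34.4% of all tested loci. The largest rises were those of the cadherin-related Cdhr3 (0.031 to 0.920 FPKM), the tektin Tekt2 (0.475 to 5.25), the adenylate kinase Ak7 (1.00 to 7.41) and Tppp3, a tubulin polymerization-promoting protein (57.3 to 335). The dynein heavy chain Dnahc5, named after its value was seen, rose from 1.84 to 6.21 FPKM. The 5 that fell, also named after their values were seen, were Ccdc40 (87.8 to 62.8 FPKM), Ccdc39, Lrrc23, Tekt1 and Stk36. The summed FPKM of the 30 listed genes was 818 in control and 1087 in Nd1. Without Tppp3, left out after its value was seen, the sum was 760.3 and 752. No listed gene was at 0 in either group, but Sntn (0.080 and 0.153 FPKM), Dnahc6 (0.027 and 0.058 FPKM) and Spag17 (0.0068 and 0.0030 FPKM) were near it and not tested.

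**Figure D2:**
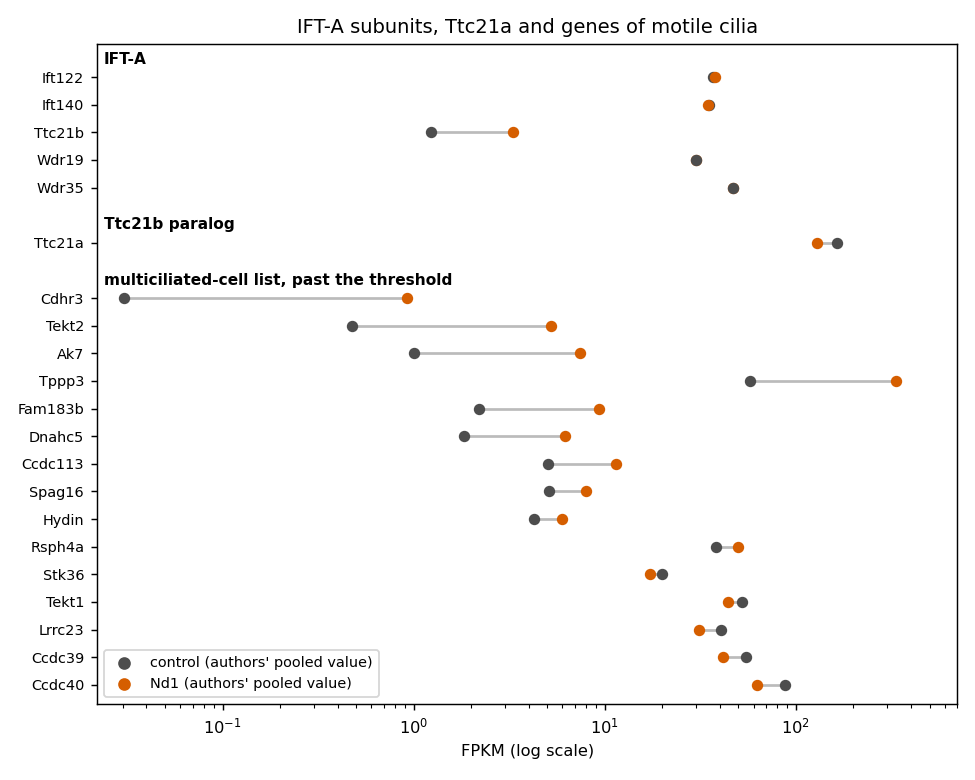
FPKM in control (grey) and Nd1 (orange) on a log axis for the 5 IFT-A subunits, for Ttc21a and for the 15 genes of the multiciliated-cell list past the authors' threshold, each point being the authors' pooled value. Ttc21b starts near 1 FPKM and moves up, Ttc21a moves down from 164 to 129 FPKM, and the other IFT-A pairs overlap.

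Some subunits of the IFT-B complex, the anterograde train, carry symbols outside the pattern and are given further below. Of the complex 13 members were tested and 0 passed, beside 34.4% of all tested loci. By the authors' unadjusted p-values under 0.05, 2 members would have passed, Ift27 and Ift57. These also had the largest ratios above 1 after that of Ttc21b. Ift27, a small GTPase needed for BBSome export, was at 33.9 and 42.5 FPKM (q = 0.106 in the authors' deposited table). Ift57, a peripheral subunit, was at 19.0 and 23.6 FPKM (q = 0.0906 in the same table). The tubulin-binding pair Ift74 and Ift81 stood at 35.0 and 30.5 and at 59.1 and 55.3 FPKM. Core subunits were Ift88 (32.5 and 33.7 FPKM), Ift52 (23.4 and 25.1) and Ift46 (17.9 and 18.9). Among the peripheral subunits Ift80 was the most abundant (65.8 and 57.2 FPKM), followed by Ift172 (47.7 and 42.7) and the Golgi-linked Ift20 (33.2 and 32.0). The TPR protein Ttc26 (IFT56) was at 19.4 and 16.4 FPKM. Log2 ratios in this complex ran from -0.24 to 0.32 around a median of -0.052.

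The IFT70 subunit is encoded by a family of near copies, and its levels are uncertain. Ttc30b was listed at 55.9 and 50.8 FPKM and Ttc30a1 at 12.0 and 11.9 FPKM. Of the 50-base stretches in their annotated transcripts 34.8% of those of Ttc30b and 31.8% of those of Ttc30a1 recur in another gene, mainly in the third copy Ttc30a2, and the table does not show how shared reads were split.

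The retrograde motor dynein-2 gave the largest called fall among the members. Its heavy chain Dync2h1 (mm9 chromosome 9, 6928503 to 7177230) was at 36.8 FPKM in control and 27.9 FPKM in Nd1, 1.32-fold lower. The log2 fold change was -0.40 with q = 7.84e-05 in the authors' deposited table. The light intermediate chain Dync2li1, which stabilizes the heavy chain, was at 25.9 and 28.6 FPKM and did not pass.

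The 7 BBSome subunits among the members were listed lower in Nd1, by small amounts, but 3 of the 7 after scaling to the summed FPKM without odorant receptors, 5 after centring on all tested loci and 6 after quantile normalization. Of the 5 tested 1 passed, beside 34.4% of all tested loci. Bbs1, the subunit that binds Arl6 (mm9 chromosome 19, 4886882 to 4906627), stood at 51.9 FPKM in control and 48.9 FPKM in Nd1. That is a log2 fold change of -0.088 with q = 0.0351 in the authors' deposited table, a difference of 1.06-fold. It changed sign, to 0.016, when the groups were scaled to their summed FPKM without odorant receptors. Of the 34 tested members that did not pass, 22 differed more in size than Bbs1 did. The TPR subunits Bbs4 (49.0 and 45.6 FPKM) and Ttc8 (50.9 and 48.8), which was first named BBS8, stood near it. Bbs2 (49.1 and 42.8 FPKM) and the lipid-binding Bbs5 (22.3 and 19.1) were at log2 ratios of -0.20 and -0.22. The untested core subunits were at 40.4 and 34.1 FPKM for Bbs7 and 37.3 and 36.8 FPKM for Bbs9. In both groups the members of the complex other than Bbs5 lay between 34.1 and 51.9 FPKM. The small subunit Bbip1, whose symbol is outside the pattern, was at 33.2 and 29.2 FPKM (q = 0.0770 in the authors' deposited table) and is named after its value was seen.

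The chaperonin-like genes Bbs10 and Bbs12, whose products assemble the BBSome, were far lower than the complex itself. Bbs10 was at 5.31 and 4.40 FPKM and Bbs12 at 6.77 and 6.31 FPKM, and neither passed.

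The 3 Arl GTPases did not pass. Arl3, which releases lipid-anchored cargo inside the cilium, was the most abundant of all 40 members at 172 FPKM in control and 169 FPKM in Nd1. Arl6, which recruits the BBSome to membranes, was at 46.9 and 50.7 FPKM. Arl13b, the activator of Arl3, was at 33.2 and 30.7 FPKM.

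In the transition zone, the gate between the cilium and the cell body, 1 of 8 members passed, beside 34.4% of all tested loci. Tctn2, a tectonic (mm9 chromosome 5, 125048758 to 125077658), fell from 25.7 to 22.3 FPKM, 1.15-fold, with a log2 fold change of -0.20 and q = 0.00687 in the authors' deposited table. The other tectonics were at 16.3 and 17.6 FPKM for Tctn1 and 40.2 and 36.6 FPKM for Tctn3. The nephronophthisis gene Nphp4 was at 13.0 and 10.9 FPKM. The large scaffold Cep290 was at 22.9 and 20.3 FPKM, Rpgrip1l at 24.8 and 24.9, and Mks1, mutated in Meckel syndrome, at 14.0 and 13.6. Tctn1 and Cep290 are less certain, since 23.9% and 7.94% of their 50-base stretches recur in other genes, mainly the neighbouring Hvcn1 and 4930430F08Rik. The 4930430F08Rik locus overlaps that of Cep290 and fell from 15.9 to 12.1 FPKM.

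**Figure D3:**
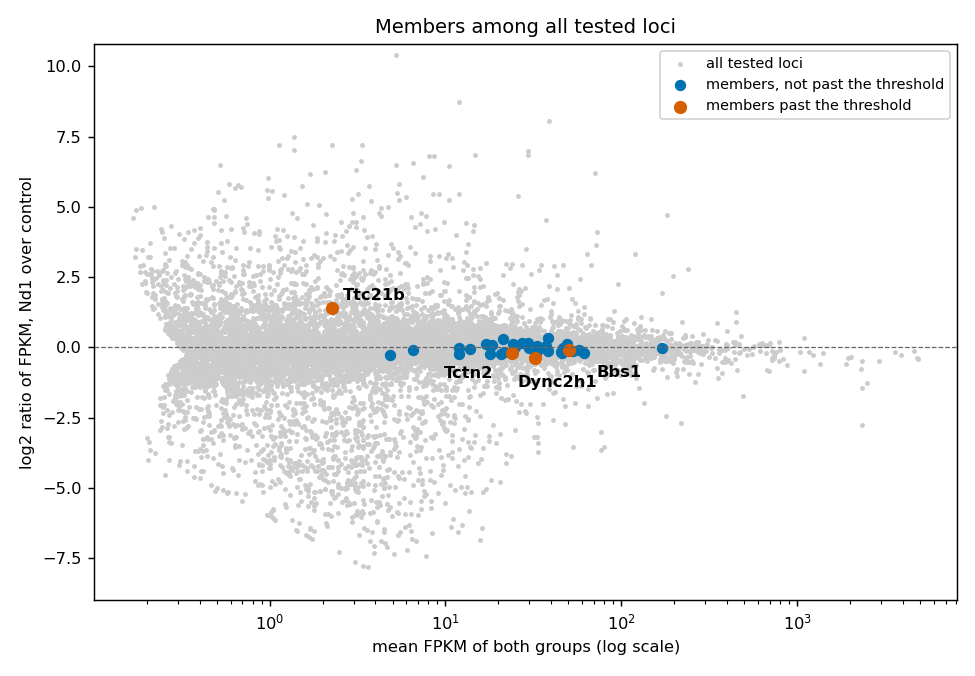
Log2 ratio of FPKM, Nd1 over control, against the mean FPKM of both groups on a log axis for all tested loci above 0 in both groups (grey), with the members not past the authors' threshold in blue and the 4 past it in orange. Apart from Ttc21b at 1.41, the members lie between -0.40 and 0.32, in the middle of the cloud.

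Other genes of cilium assembly and transport, listed by role and not by the pattern above, moved in both directions. Of 53 tested 4 rose and 5 fell (17.0%, beside 34.4% of all tested loci), with a median log2 ratio of -0.027. The largest called changes were those of Unc119b (46.4 to 32.3 FPKM), a carrier of myristoylated cargo, the light chain Dynll1 (39.8 to 56.2), Anks6, a protein of the inversin compartment (12.0 to 16.5), and Mkks, the third chaperonin-like BBS protein (12.2 to 9.13). All 4 tested IFT-B subunits with older or other symbols were listed higher in Nd1 (median log2 ratio 0.17). Of these 1 passed, Traf3ip1 (IFT54), which rose from 69.6 to 83.4 FPKM and is named after its value was seen. None of the 4 tested kinesin-2 genes passed, and the motor subunit Kif3a, named after its value was seen, was at 75.8 and 77.5 FPKM. The kinesin-2 gene Kif17 is listed only jointly with Sh2d5 and is outside these counts. The joint locus, also named after its value was seen, rose from 8.94 to 14.7 FPKM, with q listed as 0. Its log2 ratio of 0.71 is larger in size than that of any of the 53 tested genes. Which of the 2 joined genes changed was not tested.

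The RFX factors themselves changed in both directions. Of 6 tested 3 rose and 2 fell in the authors' deposited table, where 34.4% of all tested loci passed. Rfx3, the most abundant and a known regulator of ciliary genes, fell from 59.7 to 46.0 FPKM, and Rfx4 fell from 7.73 to 2.31 FPKM. Rfx2, also a ciliary regulator, rose from 20.0 to 29.2 FPKM and Rfx1 from 10.9 to 16.9 FPKM. Rfx5, which is known for MHC class II genes rather than cilia, rose from 4.34 to 6.70 FPKM. The ciliogenesis factor Foxj1 is listed only jointly with Rnf157, at 119 and 110.1 FPKM (q = 0.0688 in the authors' deposited table).

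Genes of odour transduction, whose proteins work in the cilium, and of receptor export were lower. Of 12 tested genes for transduction and receptor export 10 fell and 0 rose, beside 19.2% of all tested loci that passed lower. Their median log2 ratio was -0.55, and all 15 listed were lower in Nd1. Their summed FPKM was 13122 in control and 7064 in Nd1, a ratio of 0.538. That ratio was 0.963 for the 40 ciliary transport genes and 0.914 for all loci. The steepest called falls were those of Stoml3, a stomatin-like protein of olfactory cilia (3425 to 1254 FPKM), the phosphodiesterase Pde1c (243 to 118), the adenylate cyclase Adcy3 (888 to 496) and the channel subunit Cnga2 (859.5 to 486). The 2 lists share no gene, and the difference between them was not tested, since the table allows no test over libraries.

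**Figure D4:**
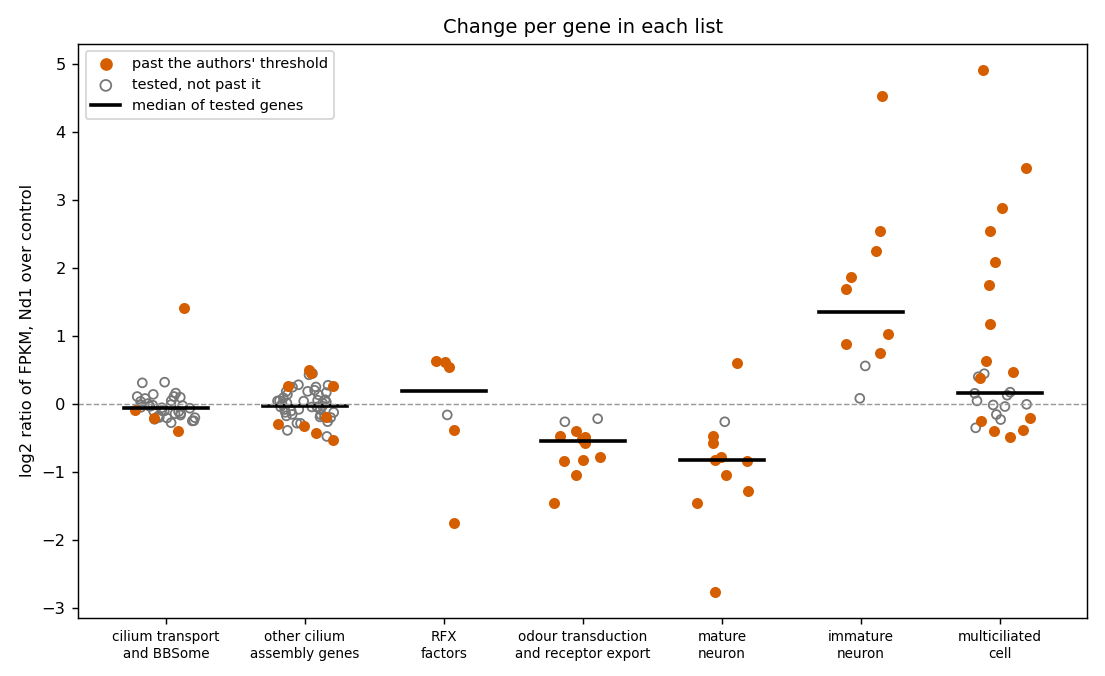
Log2 ratio of FPKM, Nd1 over control, for each tested gene of 7 lists; filled points passed the authors' threshold, open points did not, and bars are medians. The 38 tested ciliary transport genes centre on -0.056 and the transduction list on -0.55, while immature neuron markers centre on 1.36. Most genes of the mature neuron list are also on the transduction list.

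Marker genes of several cell types differed between the groups beside these results. Over all tested loci 34.4% passed, 15.1% higher and 19.2% lower. Markers of mature neurons were high in both groups, Omp at 4087 and 605 FPKM. Omp is also the locus that carries the tTA and GFP insertions, and the older control lacked tTA there. The groups thus differ in their Omp alleles, and any part of this in the Omp values was not tested. Of 11 tested mature neuron markers 9 fell while 1, the factor Ebf1, named after its value was seen, rose (108 to 166 FPKM). Adcy3, Cnga2, Cnga4, Gnal, Gng13, Ano2, Stoml3, Rtp1 and Pde1c are also on the transduction list above. Of the genes that fell, only Omp and S100a5 are not on that list. Of 10 tested immature neuron markers 8 rose and 0 fell, led by the G protein subunit Gng8 (3.11 to 71.7 FPKM) and the factors Nhlh2 (0.905 to 5.25) and Nhlh1 (1.58 to 7.52) and followed by Sox11 (1.95 to 7.12). Of 11 tested sustentacular genes 5 fell, namely Gstm2, Sox2, Krt18, Krt8 and Cbr2, the last from 50.2 to 32.2 FPKM. All 4 tested basal cell genes, Krt5, Krt14, Trp63 and Kit, fell, Krt5 from 8.03 to 3.86 FPKM. All 5 tested gland genes fell, Bpifa1 from 184 to 68.1 FPKM with Bpifb4, Sox9, Aqp5 and Muc5b at most at 3.99 FPKM. Of 8 tested neutrophil genes 6 fell, with Retnlg, Camp, Ngp and Lcn2 changing most (Ngp from 5.59 to 0.888 FPKM). The 2 tested macrophage genes did not pass. How far these differences in makeup enter the values of the ciliary genes was not tested.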

How the data were processed

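RNA from sorted mature olfactory sensory neurons was sequenced in 4 libraries, 2 per group. Per the labels' protocols, TruSeq libraries were prepared from polyA RNA. Bowtie, Cuffdiff 1.3.0 and mm9 are named in the submitters' processing notes, while annotation and filters are not stated there or in the labels. The authors deposited a single FPKM value per group and locus, with their log2 fold change, p-value and q-value, per the file headers. No column of per-sample values was used (0 columns), depth per library is unknown, and intervals and detection floors are not given. The planned limma test could therefore not be run, and the authors' q under 0.05 is used.

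In tested loci above 0 in both groups, log2 of Nd1 FPKM over control FPKM differs from the listed fold change by at most 1.38e-05, and the q-values equal a Benjamini-Hochberg adjustment over all 14841 tested loci (within 1% in 100.0%). That adjustment, used in an alternative, was tested on simulated data. A q listed as 0 is printed as such. P-values measure only the spread Cuffdiff modelled between these libraries, which differ in age within each group and, among the controls, also in genotype.

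Members were matched by symbol; the 326 loci that join several symbols and the 4724 without one were left out. All members but 1 are named, and that gene is not reported here. From other lists up to 4 called genes of the largest change are named, or every called gene where 5 or fewer were called, with Adcy3, Cnga2, Omp and Foxj1 whatever their values. The members and lists were chosen with earlier results of these data known. Starts are 1-based on mm9. Promoters are RefSeq windows on GRCm38.p6, matched by symbol, and 50-base stretches were compared, on both strands, over the transcripts of GENCODE M21. Values were computed with Python 3.11.15 and pandas 2.3.3. Alternatives covered the q threshold, a minimum fold, the pseudocount, the scaling of the groups and the handling of loci.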

Additional observations from a re-analysis of the deposited data

How the results depend on the processing

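No paired analysis was possible because the table holds 1 value per group, and for the same reason no replicate could be left out. Of the 38 tested members 4 were called at q under 0.05, 3 at q under 0.01 (without Bbs1) and 6 at q under 0.1, where the rises numbered 2 and the falls 4. Adjustment over loci of at least 1 FPKM left 4 calls. Use of every row could not change the calls, since each member has a single locus. With a change of at least 1.5-fold required 1 call stood, of Ttc21b, with 0 lower, while 23.1% of all tested loci passed. The median log2 ratio of the members, -0.056 as deposited, was -0.054 and -0.040 with pseudocounts of 1 and 10 FPKM, 0.012 after centring on the median of all tested loci, -0.021 after quantile normalization and 0.048 after scaling to the summed FPKM without odorant receptors. That scaling moved the median of all tested loci by 0.10, from -0.068 to 0.036, and turned Bbs1 from -0.088 to 0.016. Over the 6 pseudocounts and scalings Ttc21b ran from 0.24 to 1.66, Dync2h1 from -0.40 to -0.29 and Tctn2 from -0.20 to -0.10. Their direction was hardly tested by this, since a pseudocount cannot change the side of a ratio. Centring and the receptor scaling shift all loci alike, by 0.068 and 0.10, which is less than these 3 changes as deposited. Of the 6 settings only quantile normalization could have turned them. The members' share of the summed FPKM, 0.362% in control and 0.381% in Nd1, was 0.370% and 0.383% without odorant receptors in the total and 0.405% and 0.415% without the 10 highest loci, both chosen after seeing the data. Causes of these shifts were not tested. The authors' calls could not be recomputed after rescaling, and Ttc21b, at 1.24 FPKM in control, is the member whose value rests on the lowest signal.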

Other observations

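Hedgehog signalling runs through the primary cilium in many tissues, and most of its listed genes were near 0 in these neurons. Of 9 listed genes 6 were not tested. The targets Gli1 (0.054 and 0.0073 FPKM in control and Nd1) and Hhip (0.026 and 0.020) and the factors Gli2 (0.017 and 0.026) and Gli3 (0.058 and 0.029) were all under 0.1 FPKM. The transducer Smo was at 0.356 and 0.230 FPKM. The receptor Ptch1 stood apart at 27.8 and 28.1 FPKM (q = 0.929 in the authors' deposited table), a level like that of the ciliary transport genes, and Sufu was at 5.85 and 5.11 FPKM. None of the 3 tested genes passed, beside 34.4% of all tested loci. These genes are named after their values were seen.

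Levels of motile axoneme genes ranged widely in both groups. Of 30 listed genes of multiciliated cells 15 were at 10 FPKM or more in control and 17 in Nd1, and 4 and 3 were under 0.2 FPKM. The axonemal Hydin was at 4.27 and 5.95 FPKM, and it rose in the authors' deposited table. The radial spoke gene Rsph9 stood at 96.7 and 82.7 FPKM and Rsph1 at 65.5 and 73.1, and neither passed. Ccdc39 (54.7 to 41.6 FPKM) and Ccdc40 (87.8 to 62.8 FPKM), which set the spacing along the axoneme, fell in the authors' deposited table. All are named after their values were seen.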
